A study of Mus musculus with 8 samples.

Results

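The disease-associated microglia (DAM) and lipid-handling genes described here are Apoe, Lpl, Trem2, Tyrobp, Csf1r, Clec7a, Gpnmb, Lgals3, Cst7 and Cd9. The 10 genes were taken by symbol from the rows of the deposited count table, which holds 31894 genes with an identifier. All 10 had a row, and 9 of the 10 passed the filter on low counts that left 13598 genes for testing. The gene that did not pass was Cst7.

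The libraries were bulk mRNA from breast cancer brain metastasis (BCBM) tumors in 4 mice, numbered 57, 58, 67 and 70. The tumor cells came from the PyMT mammary tumor model with an E-cadherin-mCFP reporter, were passaged serially in the brain, and carried the nuclear label H2B-Dendra2. From each tumor, live Dendra2-positive cells were sorted into a CFP-positive population (E-cadHI) and a CFP-negative population (E-cadLO). The gating shown by the study also takes cells with low tdTomato, which marks host cells in a reporter strain, whereas the labels name wild-type mice, so it is uncertain whether that step removed host cells from each of these tumors. Purity was checked by the study on CFP-positive cells only. The labels give strain FVB, a wild-type genotype, breast cancer and a brain metastasis tumor for both groups, and neither group had a treatment or a time of its own. Each mouse therefore gave 1 library of each population, 8 libraries in all and 4 in each group. Both groups derive from the same passaged tumor model, so the mice are separate hosts and not separate primary tumors. The hosts were adult when injected, according to the methods.

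When microglia, the resident macrophages of the brain, meet damage, dying cells or lipid debris, they can lower their homeostatic genes and raise a program known as DAM. The receptor TREM2 binds lipids and lipoproteins and signals through the adaptor TYROBP (DAP12), and apolipoprotein E is both a ligand of TREM2 and a DAM gene itself. Several of these genes are also used outside microglia: astrocytes secrete apolipoprotein E in the healthy brain, and the tetraspanin CD9 and galectin-3 are made by many epithelial cells.

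Values are normalized CPM unless another scale is named, that is, counts scaled to a common library total corrected by the trimmed mean of M values (TMM). Total counts ranged from 9102781 to 15769200, so that 3 counts, used as the detection floor, correspond to 0.19 to 0.33 CPM before TMM scaling. The epithelial genes Epcam (290 to 1344 CPM) and Krt8 (1922 to 4399 CPM) were high in every library. Markers of brain cells were detected in every library too. The summed level of 12 homeostatic microglia genes was 59.7 to 150.1 CPM in E-cadHI and 154 to 487 CPM in E-cadLO. Of those 12, P2ry13, Fcrls, Slc2a5 and Siglech had no count in the E-cadHI library of mouse 57, and each of the 12 had counts in the other libraries. In bulk RNA, fewer cells of a type and less RNA per cell cannot be told apart. The spread between libraries of 1 group (chi-square per degree of freedom of at least 27.7 between any pair) was well above counting noise.

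The DNA just upstream of the genes is shown for the members in which a motif of a factor tied to this program was found. RefSeq promoter entries (GRCm38.p6) were matched for 7 of the 10 members (10 entries), with none for Tyrobp, Lpl or Csf1r. The 250 bases before each start were searched on both strands for GAGGAA, the core of the site of PU.1, a transcription factor of the macrophage lineage, for CACGTG, the E-box read by the MITF/TFE factors of lysosomal genes, and for TGANTCA, the AP-1 site. The sequences below run 5′ to 3′ on the gene's strand and end at the base before the start, and capitals mark the matches.

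Trem2, chr17:48346151-48346400, plus strand: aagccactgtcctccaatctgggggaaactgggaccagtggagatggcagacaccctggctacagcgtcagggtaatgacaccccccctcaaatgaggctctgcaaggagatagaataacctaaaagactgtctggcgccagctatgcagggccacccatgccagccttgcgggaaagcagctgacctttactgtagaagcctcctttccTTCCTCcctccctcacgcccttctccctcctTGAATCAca
Apoe, chr7:19699189-19699438, minus strand: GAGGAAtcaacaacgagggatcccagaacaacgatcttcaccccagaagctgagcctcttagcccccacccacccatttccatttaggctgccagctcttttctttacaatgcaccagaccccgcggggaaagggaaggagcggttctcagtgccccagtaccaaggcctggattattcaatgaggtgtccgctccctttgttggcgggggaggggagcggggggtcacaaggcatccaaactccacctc
Clec7a, chr6:129472780-129473029, minus strand: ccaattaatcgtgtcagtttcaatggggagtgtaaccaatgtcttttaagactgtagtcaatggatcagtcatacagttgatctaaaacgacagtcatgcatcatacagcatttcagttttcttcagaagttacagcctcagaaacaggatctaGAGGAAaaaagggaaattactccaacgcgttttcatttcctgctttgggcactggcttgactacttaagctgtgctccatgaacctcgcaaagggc

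Trem2 held the PU.1 core in its reverse orientation (TTCCTC) 40 bases before the start and an AP-1 site 9 bases before it. The PU.1 core stood 250 bases before the gene start of Apoe and 132 bases before a RefSeq start inside that gene, and 96 bases before the start of Clec7a. Neither Cst7, Cd9, Gpnmb nor Lgals3 had a match, and CACGTG was in none of the 10 entries. The only Lgals3 entry starts 6109 bases inside the annotated gene, so the bases before its annotated start were not searched. The motifs do not overlap in these sequences. Among all 32851 promoter entries, 23.3% held the PU.1 core, 6.02% held CACGTG and 6.75% held the AP-1 site, so a PU.1 core is a common feature of promoters of this length.

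The comparison of E-cadLO with E-cadHI asks whether the members differ between tumor populations with low and high E-cadherin. Apoe, Trem2, Tyrobp, Csf1r, Gpnmb and Lgals3 were higher in E-cadLO than in E-cadHI in 4 of 4 mice, whereas Cd9 was lower in 4 of 4 mice. Lpl, Clec7a and Cst7 were not in one direction in all mice. Across all tested genes, 16.8% were higher in 4 of 4 mice and 14.2% were lower in 4 of 4 mice. In edgeR's quasi-likelihood test without the mouse in the fit, no member passed an adjusted p of 0.05 and 0% of all tested genes did, although 4 members were higher and 1 was lower at an unadjusted p under 0.05, beside 1109 higher and 790 lower genes overall. With the mouse as a replicate block, Apoe alone rose among the members, against 0.728% of tested genes. DESeq2 called 2 members higher without the block, Trem2 and Lgals3, against 2.19% of genes, and 6 with it, against 7.57% of genes. In simulated data DESeq2 without the block made a larger share of false calls than edgeR without it. Those data held no differences between mice, so they cannot judge the fits with the block. Trem2, Tyrobp and Gpnmb had 3, 7 and 0 counts in E-cadHI of mouse 57. They reached the filter's level in every E-cadLO library but not in every E-cadHI library, so they passed it only with E-cadLO libraries.

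**Figure D1:**
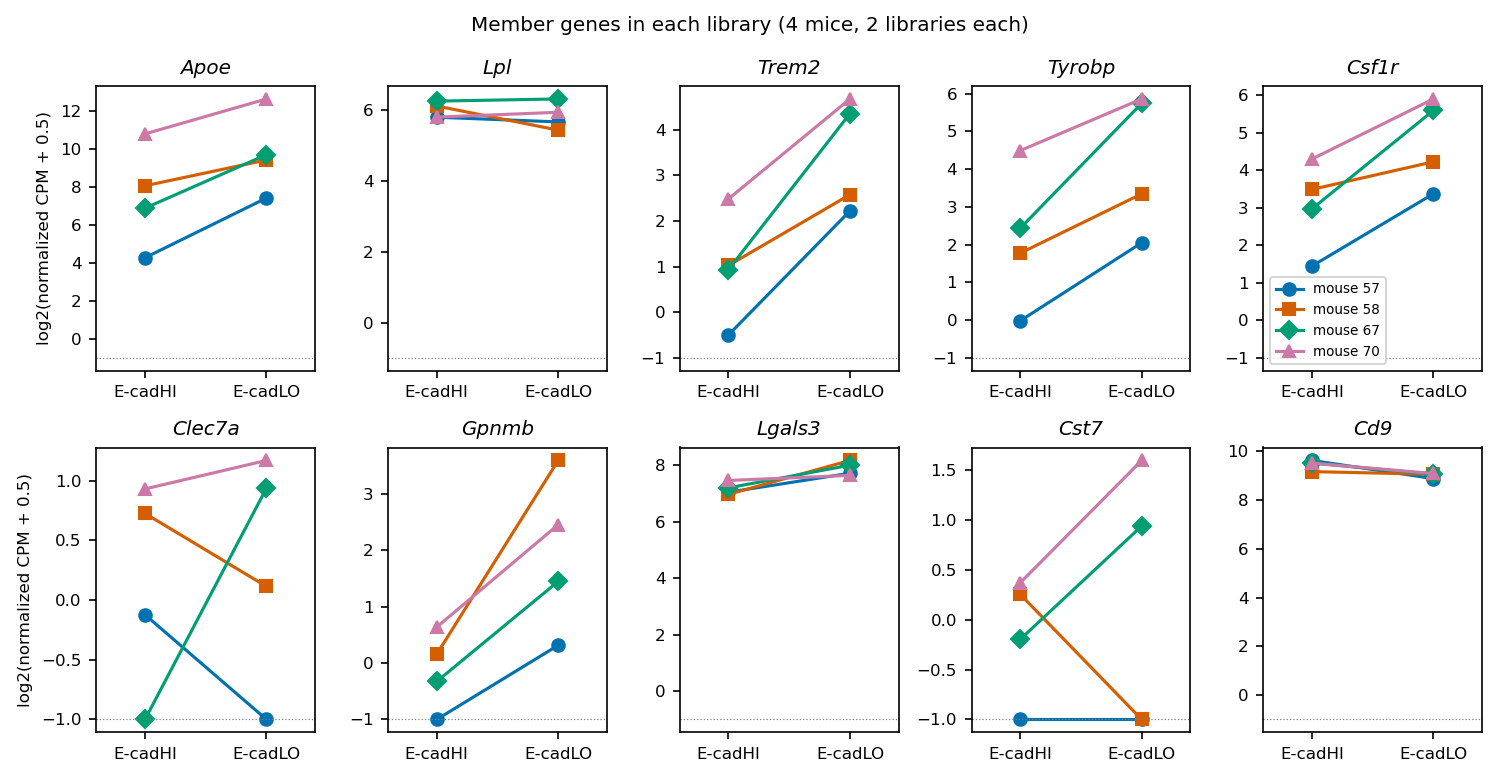
Each panel shows 1 gene, with log2(normalized CPM + 0.5) on the y axis and a line joining the E-cadHI and E-cadLO libraries of a mouse; the dotted line marks no counts. The lines of Apoe, Trem2, Tyrobp, Csf1r, Gpnmb and Lgals3 slope up in 4 of 4 mice and those of Cd9 slope down in 4 of 4.

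Apoe encodes the main apolipoprotein of the brain and lies on chromosome 7 (19696109-19699188, minus strand, GRCm38). It was measured at 18.9, 267, 118 and 1779.6 CPM in the E-cadHI libraries of mice 57, 58, 67 and 70, and at 171, 687, 834 and 6367 CPM in their E-cadLO libraries. Mouse 70 was highest in both populations and mouse 57 lowest, and the groups overlapped. The group means were 546 ± 829 CPM in E-cadHI and 2014 ± 2915 CPM in E-cadLO (SD, n = 4 each), so that the spread exceeded the mean in both.

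Within a mouse, Apoe was 9.04-fold, 2.57-fold, 7.07-fold and 3.58-fold higher in E-cadLO in mice 57, 58, 67 and 70. Between mice, by contrast, the E-cadHI libraries alone spanned 94.2-fold and the E-cadLO libraries 37.3-fold. The edgeR log2 fold change was 1.88 ± 1.36 (SE) without the mouse in the fit (edgeR adjusted p = 0.515) and 2.29 ± 0.34 with it as a block (edgeR adjusted p = 0.0362). The call with the block held without mouse 57 (0.00479) or mouse 58 (0.0449) and was lost without mouse 67 (0.378) or mouse 70 (0.141), values that are edgeR adjusted p. Without the E-cadLO library of mouse 70, the log2 fold change of the fit without the block was 0.07, and without the E-cadHI library of mouse 70 it was 3.89.

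Apoe also stood out in rank. Per kilobase of exon, it was the 9th highest of 31719 genes in the E-cadLO library of mouse 70 and the 42nd in its E-cadHI library, but the 4914th in the E-cadHI library of mouse 57. Its share of the summed CPM per kilobase of the 10 members ran from 1.87% (E-cadHI, mouse 57) to 86% (E-cadLO, mouse 70). Cd9 held the largest share in E-cadHI of mice 57, 58 and 67 (57.7% to 81.8%) and in E-cadLO of mouse 57 (52.9%).

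Within each population, Apoe was highest in mouse 70, as were the summed markers of homeostatic microglia (150.1 CPM in E-cadHI and 487 CPM in E-cadLO), neurons (128 and 412 CPM), astrocytes and oligodendrocytes. In mouse 70, the summed astrocyte list reached 3552 CPM in E-cadHI and 9905 CPM in E-cadLO, against 732 to 1979 CPM in the other 6 libraries. The oligodendrocyte list, which holds the myelin genes Mbp and Mobp, reached 8596 and 34455 CPM in mouse 70 against 554 to 4304 CPM elsewhere. Among the genes whose pattern over the 8 libraries was most like that of Apoe were Mobp (Pearson r = 0.992) and Bcas1, a gene of myelinating oligodendrocytes (r = 0.991). These are descriptions over libraries that share their mice. The part of astrocytes, oligodendrocytes or microglia in the level of Apoe was not tested.

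**Figure D2:**
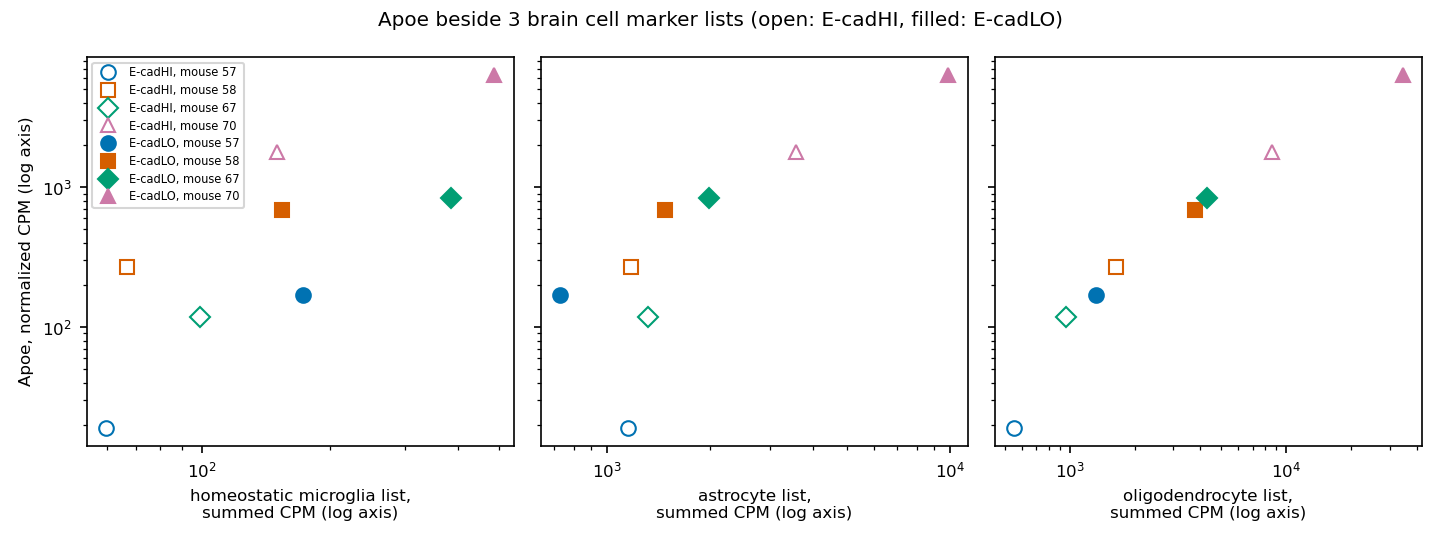
Normalized CPM of Apoe (y, log axis) against the summed CPM of the homeostatic microglia, astrocyte and oligodendrocyte lists (x, log axes) in 8 libraries; open symbols are E-cadHI and filled symbols E-cadLO. The libraries of mouse 70 lie at the top of the Apoe axis, at 1779.6 and 6367 CPM, and furthest right for the astrocyte and oligodendrocyte lists.

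Lpl encodes lipoprotein lipase, which releases fatty acids from lipoproteins and is made by fat, muscle and mammary tissue as well as by DAM. In E-cadHI it was at 54.8, 68.3, 75.2 and 54.9 CPM in mice 57, 58, 67 and 70, and in E-cadLO at 49.9, 42.5, 78.5 and 60.4 CPM. The groups overlapped, and it was higher in E-cadLO in 2 mice and lower in 2. The edgeR log2 fold change was −0.13 ± 0.22 (SE; edgeR adjusted p = 0.78) without the block and −0.15 ± 0.19 with it.

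In a list of 33 other lipid-handling genes (carriers, receptors, transporters and lipid droplet proteins), 28 were tested and 18 had a positive log2 fold change. That was 64.3% of those tested, against 55.1% of all tested genes. Their median was 0.42 without and 0.20 with the block, against 0.07 and 0.03 over all tested genes, and none passed in either edgeR fit. The most abundant of them were not higher in E-cadLO in all mice. Plin2, a coat protein of lipid droplets, was at 906 to 1271 CPM in E-cadHI and 972 to 1799 CPM in E-cadLO, and was higher there in 2 of 4 mice. Clu, another secreted apolipoprotein, was lower in E-cadLO in 3 of 4 mice (log2 fold change −0.61 ± 0.39 SE, edgeR adjusted p = 0.475). Npc2, which moves cholesterol out of lysosomes, was also lower in 3 of 4 (−0.23 ± 0.25).

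Trem2 encodes the lipid-sensing receptor on chromosome 17 (48346401-48354147, plus strand) whose promoter is printed above. It was low in E-cadHI, at 0.209, 1.54, 1.41 and 5.09 CPM in mice 57, 58, 67 and 70, and at 4.16, 5.47, 19.9 and 25.02 CPM in E-cadLO. The groups overlapped only in that the E-cadHI library of mouse 70 exceeded the E-cadLO library of mouse 57. The lowest value rested on 3 counts and the highest on 358.

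The log2 fold change of Trem2 was 2.73 ± 0.90 (SE) without the block (edgeR adjusted p = 0.298) and 2.93 ± 0.50 with it (edgeR adjusted p = 0.0547), and DESeq2 without the block gave an adjusted p of 0.0327. Tyrobp, the adaptor that carries the TREM2 signal (chromosome 7, 30413760-30417585), was at 0.488, 2.92, 4.91 and 21.95 CPM in E-cadHI and 3.64, 9.65, 52.9 and 57.4 CPM in E-cadLO. Mouse 70 was highest and mouse 57 lowest in both populations, and the groups overlapped. Its log2 fold change was 2.04 ± 1.10 (SE; edgeR adjusted p = 0.419) without and 2.30 ± 0.40 with the block (edgeR adjusted p = 0.0547).

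The receptor and its adaptor moved together over the 8 libraries (r = 0.95), which share their mice. Genes most like Trem2 were Hpgds, the hematopoietic prostaglandin D synthase (r = 0.988), C5ar1, a complement receptor of myeloid cells (r = 0.981), and Dlg1 (r = 0.981). For Tyrobp they were Hcls1 (0.991), Rac2 (0.99) and Fcer1g (0.988), all genes of blood-derived lineages. Of 18 genes for TREM2-DAP12 signalling, 14 were tested and 8 (57.1%) had a positive log2 fold change, against 55.1% of all tested genes. Their median was 0.36 without and 0.35 with the block, and none passed in either edgeR fit. Syk, the kinase recruited by TYROBP, went from 0 to 0.878 CPM in E-cadHI to 0.520 to 6.19 CPM in E-cadLO (edgeR adjusted p = 0.348). Syk was 1 of 4 tested genes of the list that were higher in 4 of 4 mice. Plcg2 and Adam10 were the 2 that were lower in 4 of 4. Plcg2 was at 31.3 to 69.1 CPM in E-cadHI (log2 fold change −0.705 ± 0.251 SE, edgeR adjusted p = 0.303). The most abundant genes of this list were the sheddases Adam10 and Adam17, which cut TREM2 from the surface, and the adaptor Blnk. Adam17 was lower in 2 of 4 mice and Blnk in 3 of 4.

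Csf1r encodes the receptor on which microglia depend for survival (chromosome 18, 61105572-61132149). Its E-cadHI values were 2.23, 10.8, 7.36 and 19.2 CPM in mice 57, 58, 67 and 70, and its E-cadLO values 9.88, 18.3, 47.9 and 59.4 CPM. All mice were higher in E-cadLO, with overlap between the groups. The log2 fold change was 1.78 ± 0.70 (SE; edgeR adjusted p = 0.321) without the block and 1.80 ± 0.34 with it (edgeR adjusted p = 0.069). Csf1r overlaps 2 annotated genes, 1 of them on the opposite strand, and whether counting used strand is not given in the sources used here.

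Csf1r was closest in pattern to B230217C12Rik (r = 0.99), the hematopoietic gene Nckap1l (0.99) and Rac2 (0.989). Among 10 other genes of the CSF1R axis, 9 were tested and 7 (77.8%) had a positive log2 fold change, against 55.1% of all tested genes. Their median was 0.90 without and 1.22 with the block. Irf8, a transcription factor of microglia and other myeloid cells, rose with the block (log2 fold change 2.38 ± 0.37 SE, edgeR adjusted p = 0.0392). The ligand Csf1 was at 28.01 to 39.03 CPM in E-cadHI and at 128, 38.9, 47.5 and 34.7 CPM in E-cadLO of mice 57, 58, 67 and 70. Il34, the other ligand, was not tested and reached 29.6 CPM only in the E-cadLO library of mouse 57.

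Clec7a encodes Dectin-1, a receptor for fungal glucans that marks DAM, and its entry is annotated as a polymorphic pseudogene (chromosome 6, 129461591-129472779). It had 6, 15, 0 and 16 counts in E-cadHI of mice 57, 58, 67 and 70 and 0, 5, 21 and 25 counts in E-cadLO. In CPM these were 0.418, 1.15, 0 and 1.41 against 0, 0.582, 1.41 and 1.75. The groups overlapped and 2 mice went each way (log2 fold change 0.35 ± 1.21 SE, edgeR adjusted p = 0.901), so no difference was detectable at this depth.

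**Figure D3:**
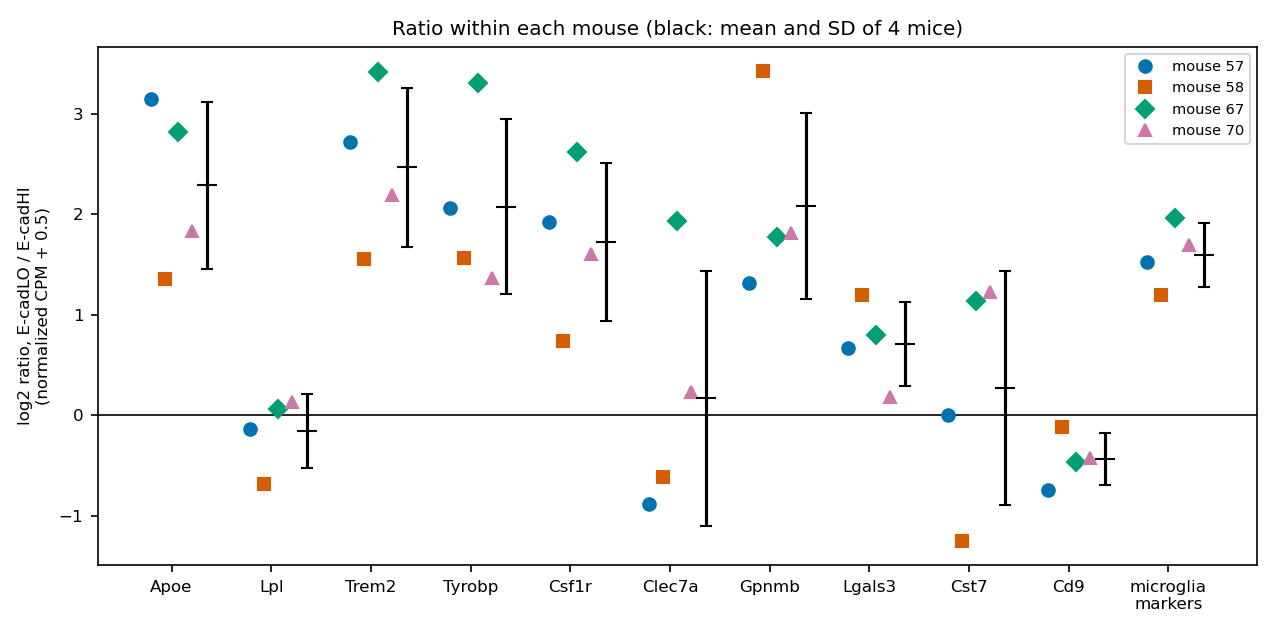
Log2 ratio of E-cadLO to E-cadHI within each mouse (normalized CPM + 0.5) for the 10 members and, at the right, for the summed CPM of the homeostatic microglia list; black bars give the mean and SD of 4 mice. Apoe and Trem2 lie above the value of the microglia list in every mouse, and Lpl and Cd9 lie below it in every mouse.

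Gpnmb encodes a lysosomal membrane glycoprotein raised in lipid-laden macrophages (chromosome 6, 49036546-49070929). It had 0, 8, 4 and 12 counts in E-cadHI and 10, 99, 33 and 71 counts in E-cadLO, so that it passed the low-count filter mostly through E-cadLO. The values were 0, 0.615, 0.297 and 1.05 CPM in E-cadHI and 0.743, 11.5, 2.22 and 4.96 CPM in E-cadLO of mice 57, 58, 67 and 70. Mouse 58, not mouse 70, was highest in E-cadLO, and the groups overlapped. The log2 fold change was 3.29 ± 1.12 (SE; edgeR adjusted p = 0.299) without and 3.33 ± 0.70 with the block (edgeR adjusted p = 0.0873). The nearest genes in pattern were Slc12a5, a neuronal chloride transporter (r = 0.961), Palm (0.955) and Cnksr2 (0.95). A list of 5 genes held the MITF/TFE factors, which drive lysosomal genes such as Gpnmb, and the melanosome protein gene Pmel, and 4 of them were tested. Their median log2 fold change was 0.56 without the block (Mitf 0.74, Tfe3 0.60, Pmel 0.52 and Tfeb 0.06) and 0.12 with it, where Tfeb (−0.03) and Pmel (−0.29) were negative, and none passed.

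Lgals3, the gene of galectin-3 (chromosome 14, 47367751-47386160), binds sugars on damaged lysosomes and cell surfaces. It was at 131, 124, 146 and 175 CPM in E-cadHI of mice 57, 58, 67 and 70 and at 209, 286, 255 and 198 CPM in E-cadLO. Every E-cadLO library lay above every E-cadHI library, as was so for 3.9% of tested genes. The spread was small, at 144 ± 22.5 CPM in E-cadHI and 237 ± 40.9 CPM in E-cadLO (SD, n = 4 each). The log2 fold change was 0.72 ± 0.18 (SE) without the block (edgeR adjusted p = 0.256) and 0.72 ± 0.20 with it (edgeR adjusted p = 0.145), and DESeq2 without the block gave an adjusted p of 0.01.

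The closest patterns to Lgals3 were those of Endod1 (r = 0.973), Vaultrc5 (0.933) and Cenpv (0.925). Of 8 genes for other galectins and a galectin-binding protein, 7 were tested, and Lgals1 alone had a positive log2 fold change (1.70 ± 0.71 SE, higher in 4 of 4 mice). The log2 ratio of Lgals1 was 3.20 in mouse 57 but 0.66, 0.01 and 0.08 in mice 58, 67 and 70. With the block its log2 fold change was 0.91 ± 0.52 (SE; edgeR adjusted p = 0.352). The list's median was −0.58 without and −0.66 with the block, 4 genes were lower in 4 of 4 mice, and none passed in either edgeR fit. Lgals9 was at 708 to 1229.97 CPM in E-cadHI and 424 to 698 CPM in E-cadLO (log2 fold change −0.67 ± 0.24 SE, edgeR adjusted p = 0.303). Lgals3bp had a log2 fold change of −0.98 ± 0.35 (edgeR adjusted p = 0.305).

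Cst7 encodes cystatin F, an inhibitor of lysosomal cysteine proteases in immune cells (chromosome 2, 150570415-150578944). It had 0, 9, 5 and 9 counts in E-cadHI and 0, 0, 21 and 36 counts in E-cadLO of mice 57, 58, 67 and 70, too few for the filter, and no test was made. Mice 67 and 70 were higher in E-cadLO, mouse 58 was lower and mouse 57 had no count in either library, which allows up to 3 counts in each. The abundant cystatin Cst3, made by microglia and astrocytes, was at 246, 280, 337 and 1523 CPM in E-cadHI and 375, 681, 475 and 3788 CPM in E-cadLO. It was higher in 4 of 4 mice and highest in mouse 70, with a log2 fold change of 1.16 ± 0.86 (SE; edgeR adjusted p = 0.526) without and 0.93 ± 0.22 with the block (edgeR adjusted p = 0.116).

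Cd9, a tetraspanin that organizes membrane proteins of many cell types (chromosome 6, 125460266-125494791), was the member lower in E-cadLO. It was at 789, 574, 733 and 731 CPM in E-cadHI of mice 57, 58, 67 and 70 and at 471, 532, 533 and 544 CPM in E-cadLO. Every E-cadLO library lay below every E-cadHI library, as was so for 4.2% of tested genes, though in mouse 58 the distance was small. The log2 fold change was −0.44 ± 0.16 (SE; edgeR adjusted p = 0.305) without the block and −0.43 ± 0.18 with it (edgeR adjusted p = 0.244). Cd9 overlaps 2 annotated genes on the opposite strand, whose reads cannot be told apart from its own without strand.

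Among the genes with the pattern most like that of Cd9 were the interferon-induced Ifitm2 (r = 0.982) and Slc25a17 (0.98). The 10 tetraspanins and partners were tested, of which 5 had a positive log2 fold change (median 0.03 without and −0.02 with the block). Cd53, a tetraspanin of leukocytes, rose with the block (log2 fold change 2.45 ± 0.36 SE, edgeR adjusted p = 0.0338). Cd81, a widely used tetraspanin, was lower in 4 of 4 mice (−0.71 ± 0.38, edgeR adjusted p = 0.413).

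**Figure D4:**
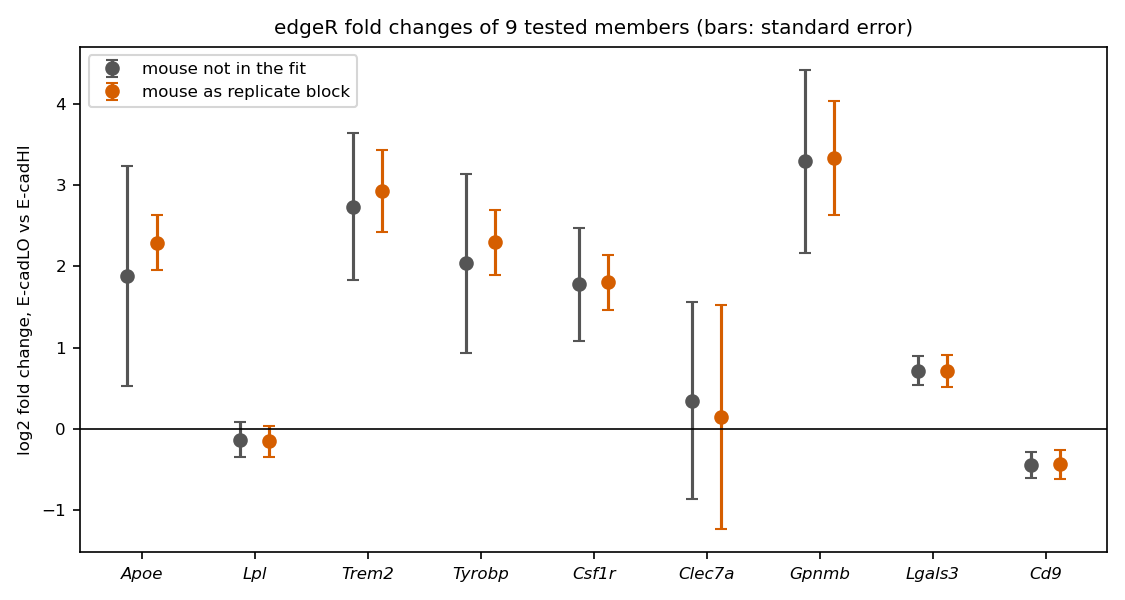
Log2 fold change of E-cadLO against E-cadHI from edgeR (y) for the 9 tested members, with standard errors as bars, without the mouse in the fit (grey) and with it as a replicate block (orange). The bar of Apoe shortens most, from 1.36 to 0.34, and the estimates of Lgals3 and Cd9 hardly change.

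Levels between members were compared per kilobase of exon. In E-cadHI, mean CPM per kilobase ran from Cd9 (346), Apoe (255) and Lgals3 (77.5) through Tyrobp (11.3), Lpl (6.04) and Csf1r (1.71) to Cst7 (0.470), Trem2 (0.417), Clec7a (0.282) and Gpnmb (0.0754). Apoe did not differ from its neighbours in that order beyond its spread (SD 388 CPM per kilobase, n = 4), nor did the 4 lowest genes from one another. In E-cadLO, Apoe came first (942 ± 1364), then Cd9 (254), Lgals3 (128), Tyrobp (46.3), Csf1r (5.87), Lpl (5.52), Trem2 (2.76), Cst7 (0.996), Gpnmb (0.746) and Clec7a (0.355). In the E-cadLO library of mouse 57, however, Apoe (79.9) stood below Cd9 (230) and Lgals3 (112). Cd9, Lgals3 and Lpl were thus well detected in E-cadHI, where Gpnmb, Clec7a and Cst7 had at most 16 counts in any library and Trem2 at most 58.

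Since microglia genes were themselves higher in E-cadLO, each member's ratio was set against that of the summed homeostatic microglia list, whose log2 ratio was 1.53, 1.20, 1.96 and 1.70 in mice 57, 58, 67 and 70. Apoe exceeded the list in 4 of 4 mice, by 1.61, 0.16, 0.86 and 0.14 on the log2 scale, and Trem2 by 1.19, 0.35, 1.46 and 0.49. Tyrobp exceeded it in 3 of 4 mice and Csf1r in 2 of 4. Csf1r lay closest to the list, with a mean difference of 0.13 ± 0.50 (SD, n = 4 mice). Lpl and Cd9 lay below the list in 4 of 4 mice. Lgals3 exceeded it only in mouse 58, by 0.001, with a mean difference of −0.88 ± 0.65 (SD, n = 4 mice). For Gpnmb, Clec7a and Cst7, which had libraries with no count, the added CPM set the ratio: Gpnmb exceeded the list in 2 of 4 mice with 0.5 CPM added and in 4 of 4 with 0.1 CPM, and no direction is given for Clec7a or Cst7. Two-sided exact sign-flip tests over 4 mice cannot reach the threshold of 0.05, and the adjusted p was 0.208 at its smallest over the 10 members.

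Other lists moved with the members. Among the 12 homeostatic microglia genes, all with a positive log2 fold change, P2ry12 and Cx3cr1 were among those that rose with the block (edgeR adjusted p = 0.049 and 0.0239), and the list's median was 2.33 without and 2.51 with it. Of 28 other DAM genes, 26 were tested and 22 (84.6%) had a positive log2 fold change, against 55.1% of all tested genes. Their median was 1.15 without and 0.996 with the block, and 2 rose with the block. These were Itgax, the integrin CD11c (4.14 ± 0.63 SE, edgeR adjusted p = 0.038), and Cd68, a lysosomal protein of phagocytes (1.66 ± 0.24, edgeR adjusted p = 0.033). Itgax was at 100.6 CPM in the E-cadLO library of mouse 57 and at 19.7 to 24.3 CPM in the other E-cadLO libraries. Its log2 ratio was 6.17 in mouse 57 and 2.85 to 3.54 in the others. Spp1, the most abundant of them, was lower in E-cadLO in 3 of 4 mice, at 2708 to 7708 CPM in E-cadHI and 1115 to 3928 CPM in E-cadLO.

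The marker lists of neurons and oligodendrocytes were also higher in E-cadLO in 4 of 4 mice (log2 ratios of 0.67 to 1.68 and 1.21 to 2.16). The summed astrocyte markers were higher in 3 of 4 mice. In mouse 57 the sum was lower (log2 ratio −0.65), although 7 of the 10 astrocyte genes were higher there (median log2 ratio 1.31). With the block Gfap, Slc1a3, Mbp, Mobp and the neuronal Snap25 rose (edgeR adjusted p = 0.036, 0.0363, 0.0311, 0.0311 and 0.046). The pan-leukocyte sum was higher in 2 of 4 mice and consisted mostly of Lcp1 (78.5 to 252 CPM), whereas Ptprc, which defines leukocytes, was at 0.139, 3.61, 3.72 and 13.5 CPM in E-cadHI and 0, 4.65, 62.1 and 42.2 CPM in E-cadLO. The fibroblast sum was at 1513 CPM in the E-cadLO library of mouse 57 and at 7.58 to 46.3 CPM in the others. The part of these cells' RNA in the members' differences was not tested.

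**Figure D5:**
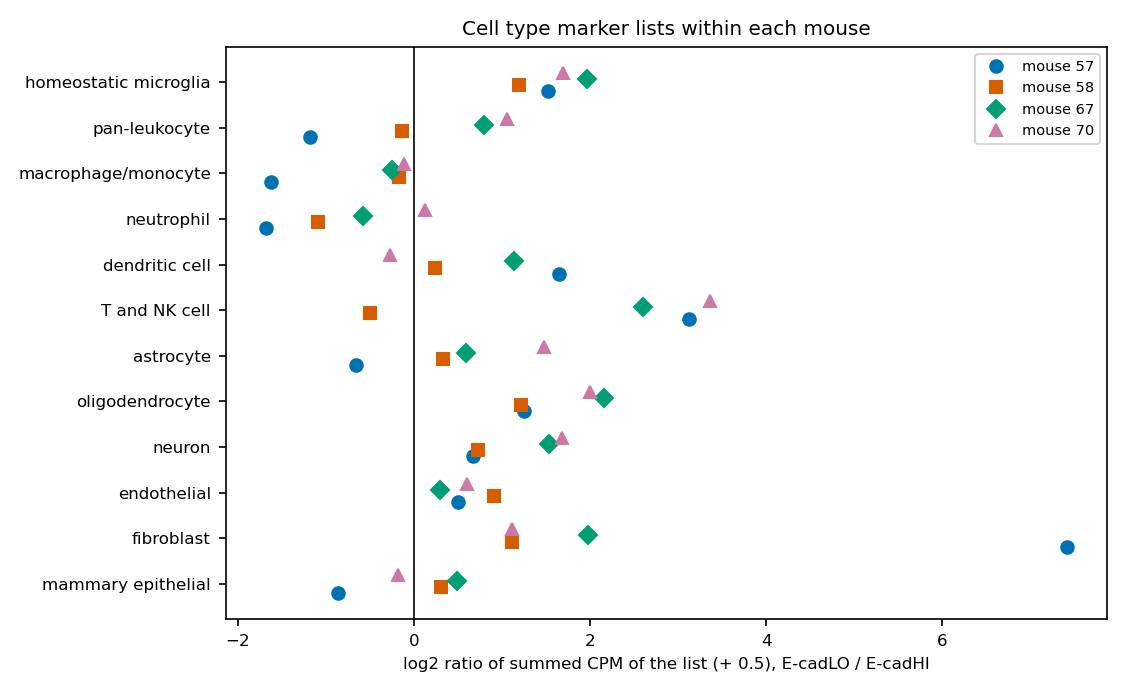
Log2 ratio of E-cadLO to E-cadHI of the summed CPM of each of 12 marker lists (x) in each mouse (symbols). Homeostatic microglia, oligodendrocyte, neuron, endothelial and fibroblast lists are above 0 in all 4 mice, and the fibroblast list of mouse 57 lies furthest right, at 7.42.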

How the data were processed

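Bulk mRNA libraries (TruSeq, single reads) of sorted E-cadHI and E-cadLO BCBM cells of 4 mice were compared. The authors mapped reads with Hisat 2.1.0 to GRCm38 and deposited whole-number counts per gene, without normalization. The counter is Icount in the methods and HTSeq in the submitters' processing notes; strand and the handling of multi-mapping reads are not given in the sources used here, so paralogs and overlapping genes are uncertain. The table holds 32259 entries, of which 365 without identifier (0.0636 to 0.0954% of counts) were left out.

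The deposited counts were tested with edgeR 4.0.16 (R 4.3.3; limma 3.58.1): TMM, filterByExpr (minimum count 10, minimum total 15), quasi-likelihood F test over all 8 libraries without a block, and Benjamini-Hochberg adjustment over 13598 genes at 0.05. DESeq2 1.42.0 (which the methods name, with no mouse term mentioned), limma-voom, other scalings and filters, a replicate block and left-out libraries were the alternatives. The standard errors given for edgeR were calculated as the absolute log2 fold change divided by the square root of the F statistic. Ratios within a mouse used CPM + 0.5, which understates changes of low genes. Both libraries of a mouse come from 1 animal, so mouse numbers pair them. Deviations from the group means correlated at 0.275 to 0.698 within a mouse and at −0.516 to 0.153 between mice. All tests compare sorted populations of 4 hosts. Without the block the p-values rest on the spread between these libraries, and with it on the spread left after mouse differences are removed.

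The 10 members and the 20 gene lists (12 of them cell type markers), written by hand from general knowledge, were chosen with earlier results of these data known. Some genes stand in 2 lists (Csf1, Cd53, Siglech). Named genes were all members, the 3 tested genes with the highest Pearson r of log2(CPM + 0.5) for each tested member, and in each list the genes called in either edgeR fit or, with none called, the 3 most abundant. Other genes (Epcam, Krt8, Syk, Plcg2, Ptprc, Il34, Csf1, Cd81 and Lgals1 among them) were named after their values were seen. A few genes that the rule names are not reported here. Exon lengths (union of exons) and overlaps came from GENCODE M21, which gave 31719 genes by identifier and the deposited coordinates for 9 members; the start of Csf1r differs. Scripts were tested on simulated data without differences between mice, in which DESeq2 without the block made a larger share of false calls than edgeR. The simulated data cannot judge the fits with the block. Detection floors cover counting error only.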

Additional observations from a re-analysis of the deposited data

Results flagged for a closer look

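In each group of 4 libraries, a value was singled out when its gap to the nearest other library exceeded Dixon's 95% limit for the group's range. This held in 9 of the 54 groups examined, and chance alone would single out about 1 in 20.

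Apoe was singled out in both populations of mouse 70, at 1779.6 CPM in E-cadHI and 6367 CPM in E-cadLO. In the same libraries the summed astrocyte markers were at 3552 and 9905 CPM and the summed oligodendrocyte markers at 8596 and 34455 CPM. The T and NK cell markers of the E-cadLO library of mouse 70 summed to 30.9 CPM.

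Cd9 was singled out in the E-cadLO library of mouse 57, at 471 CPM, below the other E-cadLO libraries (532 to 544 CPM). In that library the fibroblast markers summed to 1513 CPM. None of these values was followed by a test of its cause.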

How the results depend on the processing

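The alternatives changed counts of calls more than directions. In edgeR without the block, 0 genes were higher and 0 lower in E-cadLO at an adjusted p under 0.05 (1109 and 790 at an unadjusted p under 0.05). Genes called higher numbered 99 with the replicate block, 298 with DESeq2, 1030 with DESeq2 and the replicate block, 23 without the low-count filter and 3 with at least 10 counts in every library, and genes called lower 61 with DESeq2 and 225 with DESeq2 and the block. Members called higher numbered 1 with the replicate block (pairing by mouse), 2 with DESeq2 and 6 with DESeq2 and the block; the cause was not tested. Other settings, namely limma-voom, DESeq2 size factors in edgeR, total counts and a robust fit, gave 0 genes and 0 members. Leaving out a mouse or a library gave 0 to 425 genes higher, 0 to 24 genes lower and 0 to 5 members higher, the largest without mouse 57 in the block fit. Without the E-cadLO library of mouse 70, 13 genes were higher without the block; with it, 63 were higher and 3 lower without mouse 58, 2 higher without mouse 70 and 0 without mouse 67. The 2 members above the microglia list in every mouse became 3 (with Gpnmb) with 0.1 in place of 0.5 CPM added, an alternative chosen after seeing the data, 5 against the pan-leukocyte list and 2 to 3 without a mouse (3 without mouse 70). Lpl reversed to 0.04 without mouse 58, both without (0.041) and with the block (0.036). Leaving out mice or libraries moved Lpl from −0.318 to 0.041 and Clec7a from −0.988 to 0.878 (0.832 without the E-cadHI library of mouse 70). Clec7a reversed to −0.12 with DESeq2 and the block, −0.36 and −0.99 without mouse 67 (without and with the block), −0.09 without the E-cadHI library of mouse 67 and −0.13 without the E-cadLO library of mouse 70. Apoe ranged from 0.07 to 3.89 in log2 fold change, and Trem2 (2.28 to 3.68), Tyrobp (1.46 to 3.47), Csf1r (1.38 to 2.31), Gpnmb (2.43 to 3.95), Lgals3 (0.57 to 0.91) and Cd9 (−0.53 to −0.36) kept their sign in every setting that gave a value. With at least 10 counts in every library, Trem2, Tyrobp, Gpnmb and Clec7a had no value. Below about 25 counts (Clec7a, Cst7, and Gpnmb in E-cadHI), depth limits what can be seen. Samples that share a mouse are not independent, 4 mice limit every test, and a left-out library leaves 3 against 4.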

Other observations

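The marker lists not described above gave these values. Endothelial markers were higher in E-cadLO in 4 of 4 mice (summed 42.03 to 77.1 CPM in E-cadHI and 60.2 to 106 CPM in E-cadLO). The macrophage and monocyte list was lower in 4 of 4 mice as a sum, which consisted mostly of Arg1 (164 to 291 CPM in E-cadHI and 39.8 to 194 CPM in E-cadLO), while 6 of its 8 tested genes had a positive log2 fold change. Dendritic cell markers summed to 7.11 to 14.98 CPM in E-cadHI and 12.2 to 27.3 CPM in E-cadLO, and of the neutrophil list only S100a8 was tested. The mammary epithelial list was higher in E-cadLO in 2 of 4 mice, and 3 of its 11 tested genes had a positive log2 fold change.

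Axl, a receptor for dying cells in the DAM program, was at 313 CPM in the E-cadLO library of mouse 57 and at 9.65 to 28.3 CPM in the other E-cadLO libraries. Cd63, a tetraspanin of lysosomes, was higher in 4 of 4 mice, most so in mouse 57 (log2 ratio 1.20, against 0.02 to 0.35 in the others). The fibroblast list of that library was also far above the others.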
